A study of Mus musculus with 7 samples.

Results

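The forestomach and the hindstomach of the mouse embryo were compared at embryonic day 16 by their accessible chromatin, mapped by ATAC-seq, in which a transposase cuts open DNA and clusters of cuts are called as peaks. Merging the 87443 forestomach and 113117 hindstomach peaks on chromosomes 1 to 19 and X wherever they overlapped gave 137165 regions, made from 200560 of the 718994 such peaks in the 7 lists of the series. A region was forestomach-only, hindstomach-only or shared according to which of the 2 lists had a peak in it, and the members are these regions: 25786 forestomach-only, 50375 hindstomach-only and 61004 shared.

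Both tissues came from untreated ShhCre;R26YFP/+ embryos, given as E16.5 in the protocol, in which Cre made from the Shh gene switches on a yellow fluorescent reporter in the gut epithelium. The stomach was cut along the border between its squamous and glandular parts. Forestomach was kept in dispase for 15 minutes, its epithelium was peeled off the mesenchyme by hand, and sorting followed a collagenase step. Hindstomach epithelium was shaken loose after 30 to 40 minutes in 10 mM EDTA. The other 5 lists, used here only to look up the same regions, are E13 stomach, E13 intestine, E16 intestine, E16 colon and E16 stomach with Sox2 knocked out. The sources used here do not say how many embryos went into either E16 stomach library or how the knockout tissue was isolated. Each group had 1 library, so no difference below has a replicate check or a test, tissue and isolation method cannot be told apart, and every interval is a 95% Wilson or Newcombe interval that covers counting error only.

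The mouse forestomach becomes a keratinised stratified squamous epithelium, whose basal cells depend on the transcription factor p63 (gene Trp63) and whose upper layers make keratins and the proteins of the cornified envelope. The hindstomach becomes a simple columnar, glandular epithelium that secretes mucus, acid and pepsinogen, and endodermal factors of the GATA, HNF and FOXA families act there. SOX2 is made in the embryonic foregut and stomach, and CDX2 is the main factor of intestinal identity.

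The sequences just upstream of a RefSeq start site of 4 genes are shown because each site had a peak in 1 of the 2 tissues alone. They are the 250 bases before the RefSeq start site (GRCm38.p6), 5′ to 3′ on the gene's strand. For Krt13 this start site is internal: the sequence lies inside the gene body, which spans chr11:100117327-100121566. The Ivl sequence overlaps the end of its gene body at chr3:92573790. Capitals mark exact matches, on either strand, to 14 short motifs of epithelial factor families. Krt13 encodes a keratin of the upper layers of internal squamous epithelia, and Ivl encodes involucrin, a cornified envelope protein. Cdx2 encodes the intestinal factor, and Pgc encodes pepsinogen C, a protease precursor of the gastric glands.
Krt13 (chr11:100120578-100120827, minus strand, forestomach peak alone): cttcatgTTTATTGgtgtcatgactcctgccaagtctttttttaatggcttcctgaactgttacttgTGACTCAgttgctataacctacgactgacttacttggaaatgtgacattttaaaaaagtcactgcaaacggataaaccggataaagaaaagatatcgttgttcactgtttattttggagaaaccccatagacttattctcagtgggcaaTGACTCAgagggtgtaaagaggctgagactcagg
Ivl (chr3:92573736-92573985, minus strand, forestomach peak alone): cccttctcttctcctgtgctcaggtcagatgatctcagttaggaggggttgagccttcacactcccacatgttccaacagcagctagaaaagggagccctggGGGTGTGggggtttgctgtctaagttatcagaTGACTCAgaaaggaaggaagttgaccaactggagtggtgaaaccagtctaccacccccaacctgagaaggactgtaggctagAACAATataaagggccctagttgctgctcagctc
Cdx2 (chr5:147307250-147307499, minus strand, hindstomach peak alone): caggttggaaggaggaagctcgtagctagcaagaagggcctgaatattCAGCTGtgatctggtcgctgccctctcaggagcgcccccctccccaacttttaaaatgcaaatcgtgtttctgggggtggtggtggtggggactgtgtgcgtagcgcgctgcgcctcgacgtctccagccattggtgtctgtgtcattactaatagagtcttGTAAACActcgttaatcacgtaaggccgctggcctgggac
Pgc (chr17:47726592-47726841, plus strand, hindstomach peak alone): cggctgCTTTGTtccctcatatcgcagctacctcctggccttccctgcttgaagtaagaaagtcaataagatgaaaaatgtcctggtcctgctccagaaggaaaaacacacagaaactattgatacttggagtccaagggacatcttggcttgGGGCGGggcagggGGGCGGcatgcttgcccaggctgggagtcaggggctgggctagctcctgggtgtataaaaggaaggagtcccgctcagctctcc

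In the Krt13 promoter the letters TGANTCA, the core of an AP-1 site, began 183 and 34 bases before the start site. The forestomach peak of 146 bp at chr11:100120514-100120660 took in the nearer of these, and 1 of the 3 capitalised matches lay in it. Ivl held TGANTCA 116 bases before its start, inside a forestomach peak of 185 bp with all 3 of its matches. Its other matches were GGGTGTG, a KLF motif, and AACAAT, a SOX motif. The Cdx2 sequence held CAGCTG, an E-box, and TGTTTAC of forkhead factors, and the hindstomach peak of 183 bp took in 1 of the 2. Pgc held GGGCGG, read by KLF and SP factors, in 2 places, beside ACAAAG, a SOX motif. Counted over all 21045 promoter windows of 300 bases, TGANTCA was in 7.04%, GGGTGTG in 8.09%, AACAAT in 8.91%, CAGCTG in 15.7%, TGTTTAC in 3.03%, GGGCGG in 46.7% and ACAAAG in 16.8%. TTTATTG, a CDX motif that Krt13 holds farthest from its start, was in 3.71%. A match describes letters and not a bound site.

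Shared regions made up 44.5% of all regions (44.2 to 44.7%), hindstomach-only regions 36.7% (36.5 to 37.0%) and forestomach-only regions 18.8% (18.59 to 19.01%). The tissues had 70.5% of forestomach peaks and 55.5% of hindstomach peaks in shared regions, with a Jaccard index of 0.445. Of the 76161 unshared regions 66.1% were hindstomach-only, from 61.2% on the X chromosome to 67.5% on chromosome 7. The longer hindstomach list moves with this imbalance. When the hindstomach list was reduced to its widest 87443 peaks, the length of the forestomach list, 31121 regions were forestomach-only, 30413 hindstomach-only and 55669 shared. Only hindstomach peaks were dropped, so a shared region that lost its hindstomach peak was then counted as forestomach-only. A rise in forestomach-only regions at equal length is therefore not a gain of regions without a hindstomach peak in the full list. With peaks of at least 150 bp alone the numbers were 17528, 18036 and 36502. Without the narrowest peaks the unshared classes were near each other in number. At equal list length this had to be so, because each class is its list less the peaks in shared regions. Those peaks were close in number with the full lists too, at 61657 for forestomach and 62742 for hindstomach. The near-equal classes at equal length therefore say nothing about the tissues. Counts for each gene list below are given for the full lists and for lists of equal length.

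**Figure D1:**
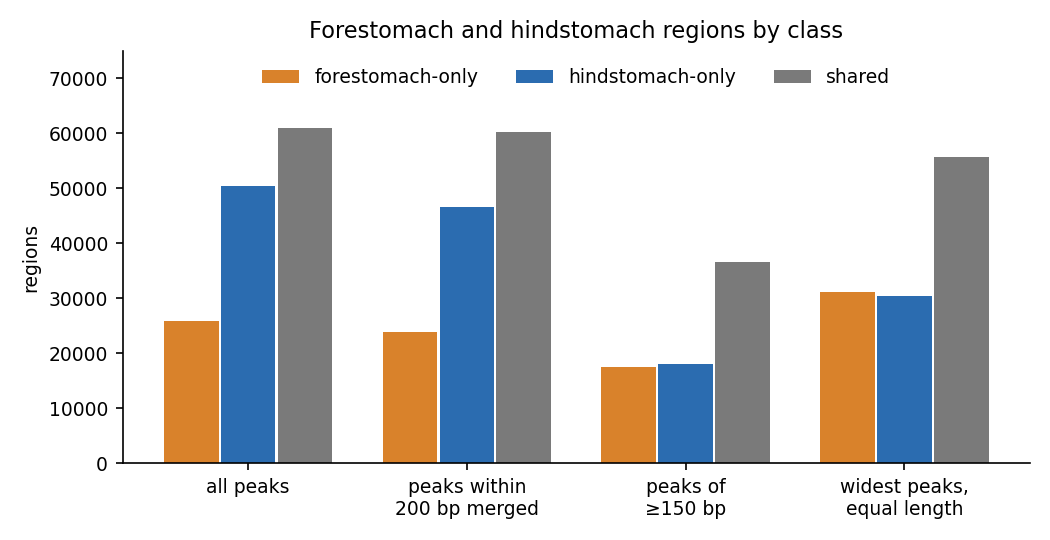
Number of regions that were forestomach-only (orange), hindstomach-only (blue) and shared (grey), with all peaks, with peaks up to 200 bp apart merged, with peaks of at least 150 bp, and with the widest peaks of both lists at equal length. The blue bar is well above the orange one in the left groups (50375 against 25786 with all peaks) and close to it in the right groups (30413 against 31121 at equal length).

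Unshared regions were narrow and lay away from genes more often than shared ones. The median width was 126 bp in forestomach-only, 110 bp in hindstomach-only and 260 bp in shared regions. At the smallest width in its list, 108 bp for forestomach and 89 bp for hindstomach, were 30.9% of forestomach-only and 25.1% of hindstomach-only regions. Gene ends, taken as 1 kb to each side of the start and the end of protein-coding genes, held 6.38% of forestomach-only regions (6.09 to 6.68%), 8.67% of hindstomach-only regions (8.43 to 8.92%) and 20.8% of shared regions (20.5 to 21.1%). Outside gene bodies were 54.0% of forestomach-only, 49.98% of hindstomach-only and 40.6% of shared regions.

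The other libraries, which took no part in defining the classes, held the hindstomach-only regions more often than the forestomach-only ones. The gap was widest in the Sox2 knockout stomach, where 30.7% of hindstomach-only regions had a peak (30.3 to 31.1%) and 16.04% of forestomach-only regions (15.59 to 16.49%), a difference of 14.7 percentage points (14.1 to 15.3). The knockout is labelled as E16 stomach, without a split into forestomach and hindstomach. No unsplit wild-type E16 stomach was in the series, so loss of Sox2 and the part sampled cannot be told apart. In E13 stomach the shares were 23.1% and 15.7%, and in E13 intestine 17.1% and 10.7%. E16 intestine and colon were isolated with EDTA, as hindstomach was. The intestine held 28.1% and 21.9%, and the colon 32.6% and 30.0%, a difference of 2.62 points (1.93 to 3.31). At equal list length the difference in the knockout was 18.0 points. No peak in any of the 5 libraries was found for 46.5% of forestomach-only regions (12000), 33.6% of hindstomach-only regions (16927) and 10.6% of shared regions (6486).

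Regions of at least 300 bp, a width chosen after the widths had been seen, showed the same order with larger gaps. There were 654 forestomach-only and 847 hindstomach-only regions of this width. Of the former 28.1% (184, interval 24.8 to 31.7%) had no peak in any other library, against 6.26% of the latter (53, interval 4.82 to 8.09%). In the knockout stomach 30.7% of the wide forestomach-only and 60.1% of the wide hindstomach-only regions had a peak, and in E16 intestine 31.0% and 53.1%. In E13 stomach, which is not split into forestomach and hindstomach, the shares were 36.5% and 53.7%.

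**Figure D2:**
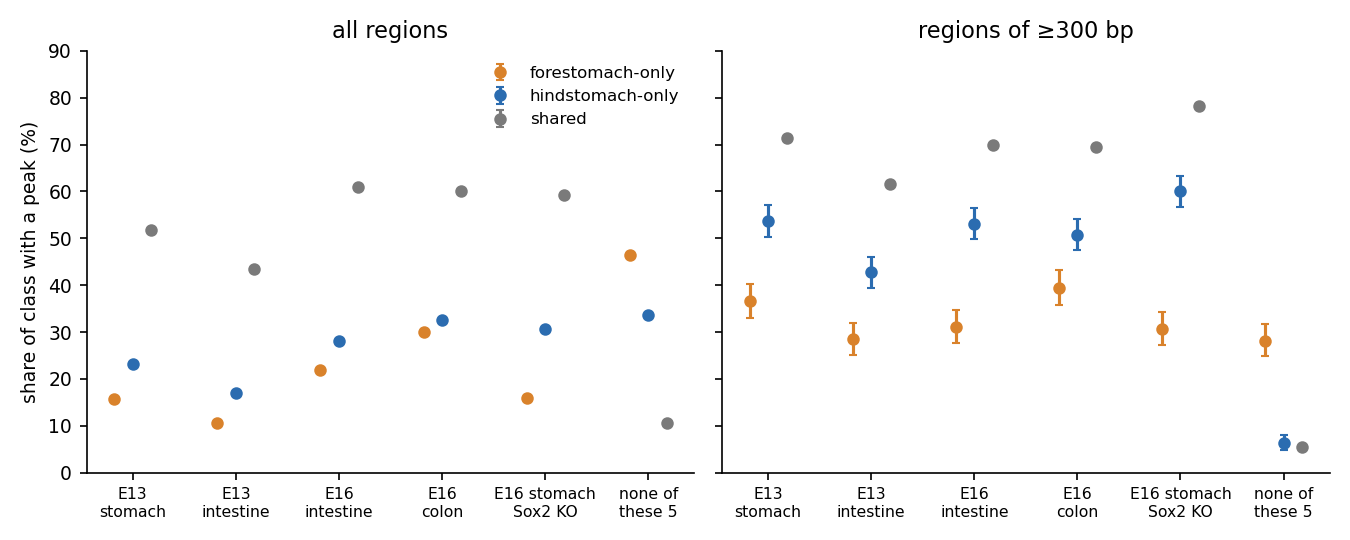
Share of forestomach-only (orange), hindstomach-only (blue) and shared (grey) regions with a peak in each of 5 other libraries, and in none of them, for all regions (left) and regions of at least 300 bp (right), with 95% Wilson intervals. Blue lies above orange in each library, by 14.7 points in the Sox2 knockout stomach over all regions, and orange lies above blue for regions in none of the 5.

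Squamous and foregut factors carried 2 wide forestomach-only and 0 wide hindstomach-only regions, basal layer genes 1 and 0 and squamous differentiation genes 2 and 0. These 3 squamous lists thus held only 5 wide unshared regions, and the lists were chosen with earlier results of these data known. Glandular differentiation genes carried 0 and 3, intestinal factors 1 and 3, signalling genes 1 and 7 and mesenchyme markers 0 and 2. Columnar and glandular factors carried 2 and 1, and genes of simple epithelia 1 and 1. Over all 1501 wide unshared regions 43.6% were forestomach-only and 56.4% hindstomach-only. Of the 5 squamous regions, 4 had no peak in any of the other 5 libraries, beside 28.1% of all wide forestomach-only regions. A 502 bp region at chr10:18860649-18861151 lay 3576 bp from Perp, which encodes a desmosomal protein that p63 controls. Another of 533 bp at chr11:95550307-95550840 lay 17977 bp from Ngfr, the low-affinity neurotrophin receptor found on basal cells of squamous epithelia. Zfp750, a factor of terminal epidermal differentiation, held a 342 bp region inside the gene at chr11:121517561-121517903. Krt6a, a keratin of stratified epithelia, had one of 375 bp at chr15:101694320-101694695, 15 bp from the gene. Krt6a has a near-identical neighbour, Krt6b, and the sources used here do not say how reads that fit both were placed. The remaining squamous region, of 314 bp, lay 8997 bp from Klf4, a factor of barrier formation, and had a peak in 3 other libraries.

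Among wide hindstomach-only regions, 2 lay at Cldn18, a claudin of gastric tight junctions, with 320 bp at chr9:99686224-99686544 and 305 bp at chr9:99709987-99710292. Both had a peak in E13 stomach, the first also in E16 intestine and the second also in the knockout. A region of 306 bp at chr7:141658290-141658596 lay 2897 bp from Muc6, the mucin of gastric glands, and had a peak in E13 stomach and in the knockout. Nr1i2, which encodes the xenobiotic receptor PXR, had a 344 bp region at its start site. Atoh1, the secretory lineage factor of the intestine, had one of 316 bp at a distance of 5102 bp that was also in the colon and knockout lists. In the intestinal factor Cdx1 a hindstomach-only region of 369 bp was present in all 5 other libraries.

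**Figure D3:**
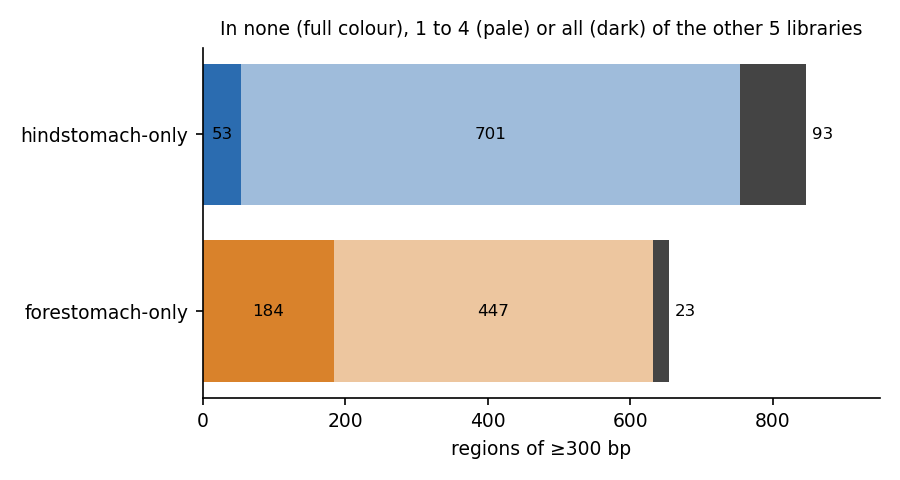
Number of forestomach-only and hindstomach-only regions of at least 300 bp with a peak in none (full colour), 1 to 4 (pale) or all (dark) of the other 5 libraries. The full-colour part holds 184 of 654 forestomach-only and 53 of 847 hindstomach-only regions, and the dark part 23 and 93.

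Regions were assigned to the closest protein-coding gene, up to 100 kb from its body, and 15341 genes had at least 1 unshared region. Of these, 18.6% had more forestomach-only and 68.0% more hindstomach-only regions; at equal list length the shares were 39.5% and 44.0% of 14345 genes. Every count below is to be read against these shares. For single genes, counts are from the full lists unless stated. Housekeeping genes, which are active in all tissues, leaned to hindstomach too: of 14, 6 had an unshared region, and all 6 had more hindstomach-only regions. At equal length 4 had more hindstomach-only and 0 more forestomach-only regions.

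Squamous and foregut factors (21 genes) held 42 regions of the forestomach-only class, 67 of the hindstomach-only class and 109 shared ones, an order kept for the triplets of counts below. Of the 20 with an unshared region 4 had more forestomach-only and 13 more hindstomach-only regions, close to the shares over all genes. At equal list length 10 had more forestomach-only and 7 more hindstomach-only regions. At Trp63 there were 3 forestomach-only regions, 5 hindstomach-only ones and 3 that both tissues shared. A shared one inside the gene at chr16:25723143-25723434 had no peak in the other 5 libraries, and neither did a forestomach-only one at chr16:25624485-25624661, 59101 bp away. Of the 5 hindstomach-only regions of Trp63 3 were narrower than 100 bp, and at equal list length the gene had 2 more forestomach-only than hindstomach-only regions. Sox2 had 3, 7 and 6 regions, and 5, 4 and 4 at equal length, so that its lean turned. Part of this turn was shared regions that counted as forestomach-only once their hindstomach peak was dropped. The gene body of Sox2 held a shared region of 305 bp at chr3:34650802-34651107 that no other library had. The hindstomach peak in it was 89 bp, the smallest width of that list. Among the libraries without it is the Sox2 knockout, and whether this sequence was removed there was not tested. Pax9, a foregut factor, had 5 shared regions and 1 hindstomach-only region of 92 bp, which was gone at equal length. Klf4 had 4, 4 and 8 regions (5, 3 and 7 at equal length), Klf5, a factor of basal cells, 4, 6 and 10 (4, 3 and 10 at equal length), and Grhl3, a factor of barrier formation, 4, 3 and 5.

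Basal layer genes, which anchor the epithelium to its basement membrane, held 28, 59 and 116 regions over 17 genes. Among 14 with an unshared region 2 had more forestomach-only and 11 more hindstomach-only regions, and at equal length 5 and 7. Dst, the hemidesmosome linker dystonin, had 5, 14 and 25 regions with the full lists and 3 more forestomach-only than hindstomach-only regions at equal length. Krt5, the type II keratin of basal cells, had 1 shared region of 184 bp 903 bp from the gene, which the knockout also had, and 1 hindstomach-only region. Its partner Krt14 had 1 shared region, and no region was given to Krt15. None of these 3 basal keratins had a forestomach-only region. Itga3, the integrin chain that binds laminin, had a promoter peak in forestomach alone.

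Squamous differentiation genes (34) held 27, 46 and 83 regions. Of 24 with an unshared region 5 had more forestomach-only and 15 more hindstomach-only regions, and 11 and 8 at equal length. Of the 27 forestomach-only regions 17 (63.0%) had no peak in the other libraries, beside 46.5% of all forestomach-only regions, 66.7% of those at endothelial markers and 6 of 10 at blood markers. Dsp, the desmosomal plaque protein desmoplakin, had 4 forestomach-only regions and 1 hindstomach-only region. By width, shared regions in Dsp went the other way. Peaks covered 108 bp in forestomach and 417 bp in hindstomach, 133 and 434 bp, and 108 and 272 bp. Krt13 had 1 forestomach-only region, the promoter peak shown above, which the knockout list also held. Ivl had 2 and 1, with a difference of 0 within 10 kb of the gene, and its promoter peak was in no other list. Sprr1b, a small proline-rich envelope protein, had 2 and 0. Cldn1, a claudin of squamous barriers, had 2 and 7, and 2 and 3 at equal length. No region was given to Krt4, the partner of Krt13.

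Columnar and glandular factors (25 genes) held 50, 129 and 186 regions. Of 22 with an unshared region 2 had more forestomach-only and 18 more hindstomach-only regions, and 6 and 11 at equal length. Tcf7l2, the nuclear effector of Wnt signals, had 5, 20 and 17 regions, and 6, 12 and 16 at equal length. Nr5a2, a nuclear receptor of endodermal organs, had 3, 13 and 9, and 3, 8 and 9 at equal length. Hnf4g had no forestomach-only region, 7 hindstomach-only ones (4 at equal length) and 3 shared ones, and a hindstomach-only one at chr3:3503562-3503741 was in all 5 other lists. Gata6 had 1, 8 and 10 regions, with 2 and 4 unshared ones at equal length and a difference of 0 within 10 kb of the gene. Foxa2 had 0, 4 and 13, with 0 and 2 at equal length and 1 more hindstomach-only region within 10 kb. Nkx6-3, a factor of the distal stomach, had 2 hindstomach-only regions and no other, with widths of 270 and 150 bp. Gata4 was mostly shared, with 1, 3 and 16 regions. Hnf4a had 1, 3 and 3, and its 3 hindstomach-only regions were between 89 and 91 bp wide. At equal length none of them was left, which gave Hnf4a 1 more forestomach-only than hindstomach-only region. Spdef, a factor of mucous cells, went the other way with 3, 0 and 2.

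Glandular differentiation genes (29) held 26, 80 and 104 regions, so that 75.5% of their unshared regions were hindstomach-only, beside 66.1% of all. The share was 76.5% at housekeeping genes, 73.7% at blood, 73.0% at endocrine and 72.2% at endothelial genes, so it does not set the glandular list apart. Of 26 with an unshared region 6 had more forestomach-only and 17 more hindstomach-only regions, and at equal length 7 and 15. Anxa10, an annexin of gastric epithelium, had 1, 8 and 9 regions. At equal length it had 2 and 5. Its hindstomach-only regions were in none of the other 5 libraries. Kcnq1, a potassium channel of acid-secreting cells, had 2, 11 and 11 regions, and 2, 7 and 11 at equal length. Kcne2, the subunit that pairs with that channel, had 1, 7 and 4, with 2 more hindstomach-only than forestomach-only regions within 10 kb of the gene, and its hindstomach-only promoter peak at chr16:92292225-92292365 was also in the E13 stomach and knockout lists. Cldn18 had 1, 6 and 7, Gkn3, a gastrokine, 0, 5 and 1, and Vsig1, a junction protein of the glandular stomach, 0, 3 and 3. Aqp5, a water channel of the distal stomach glands, and Tff1, a secreted mucosal peptide, went the other way, with 3 and 2 forestomach-only regions and no hindstomach-only region.

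**Figure D4:**
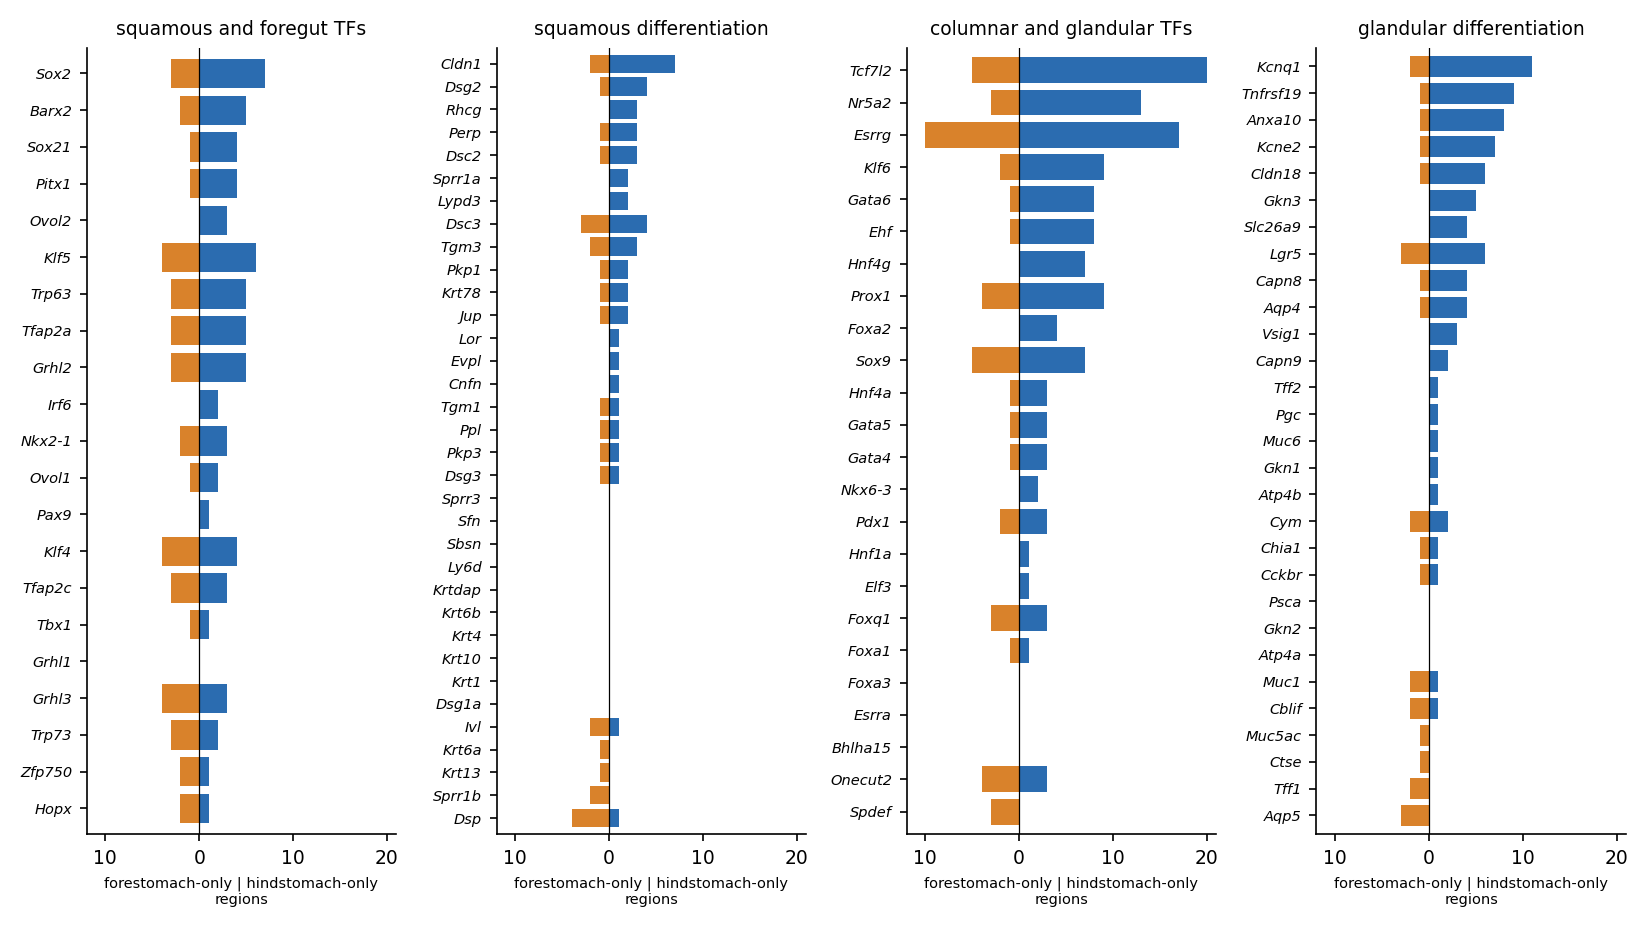
Number of forestomach-only (orange, to the left) and hindstomach-only (blue, to the right) regions given to the genes of 4 lists, with all peaks. Hindstomach-only regions were in the majority at 13 of 20, 15 of 24, 18 of 22 and 17 of 26 genes of the whole lists that had any unshared region, from left to right; Dsp (4 and 1), Sprr1b (2 and 0), Spdef (3 and 0) and Aqp5 (3 and 0) point to forestomach.

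Intestinal factors (15 genes) held 29, 63 and 75 regions. Of 14 with an unshared region 2 had more forestomach-only and 12 more hindstomach-only regions, and 3 and 8 at equal length. The 63 hindstomach-only regions had a peak in E16 intestine for 30 of them (47.6%) and in colon for 31 (49.2%). Over all hindstomach-only regions these shares were 28.1% and 32.6%. Among the other lists they ran from 14 and 16 of 80 at glandular differentiation genes to 12 and 14 of 28 at blood markers. No peak elsewhere was found for 11 of the 63 (17.5%), beside 33.6% of all hindstomach-only regions. This share was 11.1% at neural markers, 18.5% at endocrine and 51.3% at glandular differentiation genes, so it does not set the intestinal list apart. Cdx2 had 2 hindstomach-only and 3 shared regions. Its promoter peak at chr5:147307146-147307329 was in the E13 intestine, E16 intestine, colon and knockout lists and not in that of E13 stomach. The other hindstomach-only region, of 252 bp at chr5:147299276-147299528, was in all 5. Isx, a homeobox factor of the intestine, had 0, 3 and 2 regions and Maf, an enterocyte factor, 0, 4 and 8; within 10 kb of either gene the difference was 0.

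Signalling genes (40) held 69, 175 and 250 regions. Of 37 with an unshared region 4 had more forestomach-only and 29 more hindstomach-only regions, and 9 and 15 at equal length. Among ligands, Shh, which the gut epithelium secretes, had 3, 4 and 9 regions, and 3 of each unshared class at equal length. Bmp2 had 3, 11 and 8, and Bmp7 1, 7 and 9 (1, 3 and 9 at equal length). Tgfa, an EGF receptor ligand, had 2, 9 and 9, and at equal length 3, 3 and 8, with no lean left. Among receptors, Lgr4, which binds R-spondins, had 0, 6 and 8, Notch3 0, 5 and 9 and Fgfr1 0, 6 and 3; at equal length their unshared regions were 0 and 5, 1 and 3, and 0 and 5. Gli2, a transcription factor of the Hedgehog pathway, had 1, 15 and 12, and kept 9 more hindstomach-only than forestomach-only regions at equal length. For Bmp2 the direction depended on distance: with regions inside the gene body and 10 kb around it, it had 1 more forestomach-only region.

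**Figure D5:**
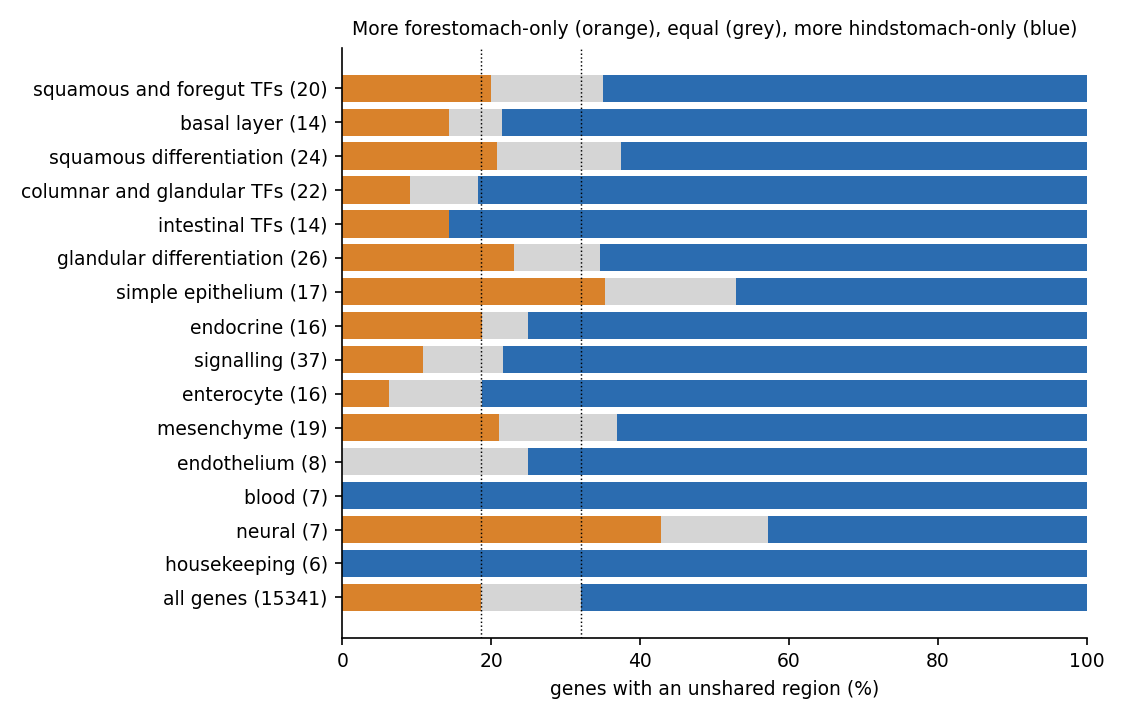
Share of genes with an unshared region that had more forestomach-only (orange), equal (grey) or more hindstomach-only regions (blue), by gene list and over all 15341 genes, with all peaks. Dotted lines mark the shares over all genes; the number of genes is in brackets. Columnar and glandular factors show 2 of 22 genes on the forestomach side, and genes of simple epithelia 6 of 17.

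Promoters differed between the tissues at few genes. With the RefSeq window, 250 bases before to 50 after a start site, 8378 of 17274 genes had a promoter peak in both tissues, 323 (1.87%) in forestomach alone and 966 (5.59%) in hindstomach alone. Of the 308 listed genes 204 had such a window, and the others were judged by peaks within 1 kb of either gene end, by which 3.47% of 4357 genes were open in forestomach alone and 8.29% in hindstomach alone. With both kinds of window 2.19% of 21631 genes were open in forestomach alone and 6.13% in hindstomach alone. On the forestomach side, Krt13, Krt6a, Ivl, Itga3 and Cblif, which encodes the gastric intrinsic factor, stayed one-sided with a window of 1 kb and with lists of equal length. On the hindstomach side, this held among others for the factors Gata5, Nkx6-3, Cdx2 and Nr1i2, the gastric genes Pgc and Kcne2, and the signalling genes Gli1, Wnt5a, Wnt7b, Rspo3, Bmp7, Nog, Ereg and Fgfr3. The signalling list had 8 promoters open in hindstomach alone and 0 in forestomach alone. Of these 8 only Fgfr3 had a start-site window. The others, like Krt6a and Nkx6-3, were judged within 1 kb of either gene end, so the peak may lie away from the start site. For them the window of 1 kb was not a separate check. Dll4, open in both tissues with the full lists, was open in forestomach alone at equal length. Squamous differentiation genes had 3 promoters open in forestomach alone and 2 in hindstomach alone. The latter were Rhcg, an ammonium transporter of squamous epithelia, and Sfn, the 14-3-3 protein of stratified epithelia. The basal layer gene Ngfr was on the hindstomach side too. Muc1, a mucin of the cell surface, had a promoter peak of 113 bp in forestomach alone. The columnar and glandular factor Prox1 and the intestinal factor Vdr also had a promoter open in forestomach alone. The same held for the enterocyte gene Enpep and the neural marker Elavl4. At equal length Prox1, Vdr, Enpep and Elavl4 stayed on the forestomach side.

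Promoters open in forestomach alone held TGANTCA in 9.11% of 406 windows (6.68 to 12.3%), those open in hindstomach alone in 5.40% of 1185 (4.25 to 6.84%), and those open in both in 5.19% of 9466. Windows open in neither held it in 8.90% and all windows in 7.04%, both inside the forestomach interval, and the intervals of the one-sided groups overlapped at their edges. CCGGAAG, read by ETS factors, was in 3.94% (2.44 to 6.31%) of forestomach-alone and 9.87% (8.30 to 11.7%) of hindstomach-alone windows, in 21.4% of windows open in both and 11.7% of all. AGATAA, read by GATA factors, was in 6.16% and 6.84%, and AAAGTCC of HNF4 in 2.22% and 4.47%, with overlapping intervals. Median GC content was 61.0% in both one-sided groups and 61.7% in windows open in both, beside 49.7% in windows open in neither.

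At shared regions the only measure left is peak width, which followed the same order across the 61004 regions in both tissues (Pearson r of log2 widths 0.752, Spearman rho 0.711, across regions and as a description). The median log2 ratio of forestomach to hindstomach width was 0.06, with quartiles of -0.24 and 0.37. At least 2-fold wider in forestomach were 5.32% of shared regions (3243), and in hindstomach 3.34% (2039). Genes of simple epithelia had 10 regions wider in forestomach and 4 wider in hindstomach of 108 shared ones. Squamous and foregut factors had 8 and 3 of 109, basal layer genes 6 and 2 of 116 and endothelial markers 5 and 2 of 33. Columnar and glandular factors had 5 and 3 of 186, signalling genes 12 and 12 of 250 and glandular differentiation genes 6 and 8 of 104. Intestinal factors had 0 and 7 of 75 and squamous differentiation genes 2 and 6 of 83. Several of those 6 lay at a single gene, Dsp. Toward forestomach, basal layer genes were near the 5.32% of all shared regions, and columnar and glandular factors below it. The smallest width was 108 bp in the forestomach list and 89 bp in the hindstomach list, and some peaks below were at it. Within Grhl3 a peak covered 348 bp in forestomach and 89 bp in hindstomach, and within Plec, the hemidesmosome linker plectin, 460 and 100 bp. The region inside Sox2 named above covered 219 and 89 bp, and one 98613 bp from Trp63 covered 383 and 182 bp. In the other direction, a region inside Gata4 covered 128 bp in forestomach and 432 bp in hindstomach, one 560 bp from Cldn4, a claudin of simple epithelia, 118 and 484 bp, and one inside Dsp 108 and 417 bp.

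Marker genes were used to look at what cells each library held. Promoter peaks were present in both tissues for 6 of 7 genes of simple epithelium, with Epcam open in neither. Of 11 squamous markers 3 were open in both, 1 (Krt13) in forestomach alone and 7, Trp63, Krt5 and Krt14 among them, in neither. Trp63 had no start-site window and was judged within 1 kb of either gene end, so any start site inside the gene was not looked at. Of 29 glandular markers 13 were open in both, 2 in forestomach alone and 4 in hindstomach alone. Over all genes, 48.5% of those with a start-site window and 52.8% of those judged by gene ends were open in both. The glandular count in both tissues was thus no higher than for genes in general. Mesenchyme markers were open in both at 3 of 22 genes, endothelial ones at 2 of 10, blood ones at 3 of 12 and neural ones at 3 of 10. Pdgfrb, of pericytes, and Sox17, of endothelium, were open in hindstomach alone. Of the neural markers, Ednrb was open in hindstomach alone and Elavl4 in forestomach alone. The endothelial marker Kdr and the mesenchyme marker Col1a1 were open in both tissues with the full lists. At equal length Kdr and Col1a1 were open in forestomach alone. The part of other cell types, and of glandular cells near the cut border, in the results above was not tested, and fewer open cells and less open chromatin per cell cannot be told apart in bulk tissue.

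By number of unshared regions, the genes of at most 100 kb that leaned most to hindstomach were Nrip1, a nuclear receptor corepressor (0, 13 and 13 regions), Trim42 (0, 12 and 5), Hk2, a hexokinase (0, 12 and 6), and Tnfrsf21, a death receptor (2, 14 and 15). Toward forestomach they were Spertl (6, 0 and 2), Slk, a kinase (6, 0 and 5), Fgf9, a growth factor of the gut epithelium (6, 0 and 8), and Tomm20, a mitochondrial import receptor (7, 1 and 15). Nrip1 kept 8 more hindstomach-only than forestomach-only regions at equal length. This order depended on distant regions: within 10 kb of the gene the forestomach excess was 1 for Fgf9, 2 for Spertl, 2 for Tomm20 and 6 for Slk, and the hindstomach excess was 3 for Trim42, 7 for Tnfrsf21, 8 for Nrip1 and 9 for Hk2. Unshared regions clustered on the forestomach side in a 50 kb window in Adamtsl1 at chr4:86300000-86350000 (5 forestomach-only and no other) and in one over Aqp2, Aqp5 and Aqp6 at chr15:99550000-99600000 (5, 0 and 1). On the hindstomach side the first windows were one without a gene at chr5:15650000-15700000 (0, 9 and 7) and one at Me3, a mitochondrial malic enzyme (2, 9 and 1). An excess of 4 or more was found in 45 windows for forestomach and 1006 for hindstomach.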

How the data were processed

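The deposited files hold 3 columns, the chromosome, start and end of each peak, as the authors made them; their unit is a position, other than a signal, with no height, score or read count, so depth per library is unknown. cutadapt, Bowtie2, MACS2 and GRCm38/mm10 are named in the submitters' processing notes; the sources used here give no versions, thresholds or pooling and do not say whether positions count from 0 or 1, so they are printed as deposited. Peaks on the 19 autosomes and X were merged where they overlapped by 1 bp or more. Regions were assigned to the closest protein-coding gene of the RefSeq GRCm38.p6 table within 100 kb. Promoter windows and sequences are RefSeq's (GRCm38.p6), and the table of windows is not complete. With 1 library per group no test was run; shares have 95% Wilson intervals and differences Newcombe intervals. The counting was checked on simulated data. The members, the 15 gene lists, the 14 motifs and the rule for named genes were chosen with earlier results of these data known. Named genes are the 10 per direction with the largest excess of unshared regions, up to 4 per list and direction with an excess of at least 2, listed genes with a promoter open in 1 tissue, a fixed set of lineage genes, the 5 widest regions per class and the 3 windows per direction with the largest excess; a part of them is printed, and 1 listed gene is not reported here by name. Other genes named with their values were chosen after those were seen. Python 3.11.15 with numpy 2.4.6, pandas 2.3.3 and scipy 1.17.1 was used.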

Additional observations from a re-analysis of the deposited data

Results flagged for a closer look

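Peaks outside the chromosomes compared were not analysed further. The forestomach list held 565 peaks on chromosome Y and 2 on the mitochondrial genome, and the hindstomach list 639 and 4. They are named because they lie in data that no comparison used, and the sources used here do not give the sex of the embryos.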

How the results depend on the processing

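With the widest peaks at equal length, hindstomach-only regions numbered 30413; 5669 genes had more forestomach-only and 6318 more hindstomach-only regions. By bases covered, 4500 genes had more of forestomach-only regions. With peaks of at least 150 bp, 18036 regions were hindstomach-only and 36502 shared. The number of list genes leaning to hindstomach minus those leaning to forestomach turned at equal length for squamous factors (-3), squamous differentiation (-3), simple epithelium (-3) and mesenchyme (-5). It was then 2 for basal layer, 5 for columnar and glandular factors, 5 for intestinal factors, 2 for endocrine, 6 for signalling, 6 for enterocyte, 0 for endothelial, 4 for blood and -3 for neural genes. With gene bodies extended by 10 kb it was 5 for squamous factors, 5 for basal layer and -1 for neural genes; away from gene ends it was 0 for simple epithelium and 2 for neural genes. For single genes, forestomach-only minus hindstomach-only regions turned at equal length for Sox2 (1), Dst (3), Prox1 (2), Foxf1 (1), Pdgfrb (1), Kdr (1), Trp63 (2), Klf5 (1) and Hnf4a (1), and with bodies extended by 10 kb for Bmp2 (1) and Wnt7b (-1). Hindstomach-only minus forestomach-only presence (percentage points) was 6.53 in E13 stomach, 5.28 in E13 intestine and 14.0 in the knockout away from gene ends, 10.5, 8.34 and 18.0 at equal length, and 3.98 in colon when 50% of a region had to be covered. At equal length 10.2% of hindstomach-only and 22.0% of shared regions were at gene ends. Wide regions absent elsewhere were 37.0% of forestomach-only and 16.47% of hindstomach-only regions from 200 bp, and 21.1% of forestomach-only regions from 400 bp. The equal-length lookup in other libraries and the other width limits were chosen after seeing the data. The cause of these changes was not tested. Some alternatives keep fewer peaks, and others change only the rule of counting. No paired analysis was possible because each group had 1 library. Without read counts, absence of a peak cannot be set against depth.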

Other observations

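Endocrine genes (17) held 10 regions of the forestomach-only, 27 of the hindstomach-only and 29 of the shared class, and Tph1, the enzyme of serotonin synthesis in enterochromaffin cells, had a promoter peak in hindstomach alone. Enterocyte genes (24) held 18, 40 and 52; of 16 with an unshared region 1 had more forestomach-only and 13 more hindstomach-only regions, and 3 and 9 at equal list length. Genes of simple epithelia (19) held 22, 37 and 108: Cdh17, a cadherin of the intestine, had 0, 6 and 5, with 2 and 4 unshared regions at equal length, and Tspan8, a tetraspanin, 1, 6 and 11, with 4 and 4 at equal length, whereas Cldn7 had 2, 0 and 2. Of 7 blood markers with an unshared region none had more forestomach-only and 7 more hindstomach-only regions (0 and 4 at equal length), with 28 hindstomach-only regions beside 10 forestomach-only ones. Of 8 endothelial markers 0 and 6 did (4 and 4 at equal length), with 39 beside 15. Mesenchyme markers (22) held 31, 47 and 51, and 17 of their 31 forestomach-only regions (54.8%) were in none of the other 5 libraries, beside 46.5% of all forestomach-only regions. The largest width ratio among shared regions at listed genes was inside Erg, an endothelial factor, with 863 bp in forestomach and 91 bp in hindstomach. None of these values has a test.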
